A study of Saccharomyces cerevisiae with 9 samples.

Results

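The hybrid strain Hyb-8 was compared with Sun049T-Z, the thermotolerant one of its parental strains, to find the functions in which their transcripts differed while both fermented xylose under heat and acid co-stress. The comparison used every array that the labels give to these strains, 3 for Hyb-8 and 3 for Sun049T-Z, which makes 6 of the 9 arrays of the series. Sun049T-Z is a diploid S. cerevisiae (MATα/a) in which 1 copy of HO, the mating-type switching endonuclease, was replaced by a zeocin resistance cassette, and its label names it as the control. Hyb-8 is a single isolate, obtained by mating spores of UV-mutagenised pools of Sun049T-Z and of the acid-tolerant parent Sun224T-K. In Sun224T-K, 1 copy of HO was replaced by a G418 resistance cassette (KanMX). The hybrids were selected for resistance to both drugs, zeocin and G418, and then for growth under both stresses. The label of Hyb-8 describes a PHO13 deletion. All strains carried plasmid-borne XYL1 and XYL2 from Scheffersomyces stipitis and XKS1, held by clonNAT, and were precultured without stress. RNA was taken 3 h after cells were moved to xylose (50 g/L) and held at 38 °C in the presence of both acids, acetic at 20 mM and formic at 15 mM.

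S. cerevisiae given these enzymes sends xylose through xylulose 5-phosphate into the non-oxidative pentose phosphate pathway, and from there into glycolysis and to ethanol. Heat unfolds proteins and calls up chaperones under the heat shock factor Hsf1, while the general stress factors Msn2 and Msn4 raise genes for trehalose and glycogen. Weak acids enter the cell undissociated and release protons inside it, which the plasma membrane proton pump Pma1 exports at the cost of ATP. Sterols, the cell wall and metal uptake are further known targets of heat, acid or low oxygen.

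Each array held 43792 spots besides controls, 7 for each of 6256 probes, and a level below is the log2 signal of a probe minus the 75th percentile of its array. A difference is Hyb-8 minus Sun049T-Z on this log2 scale, so that 1 is 2-fold, and a gene was called where the difference reached 2-fold with a limma adjusted p under 0.05 over the 5947 probes tested. The study speaks of triplicate analysis, so the 3 arrays of a strain may be technical repeats and the p-values then measure only the spread between arrays. On Sun049T-Z replicate 1 the spots of a probe had a median SD of 0.324, against 0.0514 to 0.0667 on the other 8 arrays, and 5.62% of its spots were outliers. The 6 arrays lay on 4 slides, 2 of which held an array of each strain. ACT1, which encodes actin, had levels of 2.96, 2.72 and 2.87 in Sun049T-Z and 3.12, 2.93 and 2.98 in Hyb-8, which overlap (adjusted p = 0.232). The PHO13 probe (YDL236W, for a phosphatase whose loss is known to help xylose use) read -3.71, -3.74 and -3.90 on the arrays labelled Sun049T-Z and -1.71, -1.74 and -1.72 on those labelled Hyb-8. The arrays of Sun224T-K, whose label gives the same deletion, read -1.74, -1.20 and -1.72. The signal was therefore 4.17-fold higher (adjusted p = 5.03e-06) in the strain labelled as its deletion, against the label, and every direction below rests on the strain names of the labels. The place of this probe relative to any deleted segment was not known. Of 20 haploid-specific and mating genes tested, 2 were called higher and 2 lower. Those higher were BAR1, a protease of MATa cells, by 1.34, and STE6, the exporter of a-factor, by 1.12. Those lower were STE18, of the pheromone G protein, by 2.35, and SST2, which damps pheromone signalling, by 1.07. STE6 was no longer called without Hyb-8 replicate 2, nor SST2 without Sun049T-Z replicate 1 (-0.93) or Hyb-8 replicate 3. STE2, the receptor of MATa cells, lay between -4.95 and -4.64 in both strains, with overlapping groups.

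The strains differed in 557 genes called higher in Hyb-8, 9.37% of those tested, and 541 called lower, 9.1%. Among the 5755 probes that were well above background on all 6 arrays, 499 were called higher (8.67%) and 481 lower (8.36%). The median difference of these probes was 0.03, with quartiles of -0.43 and 0.48, and 103 of the calls upward and 71 of those downward reached 4-fold. Groups that do not overlap were common among all probes: every Hyb-8 array was above every Sun049T-Z array for 34.1% of those tested (33.9% of those detected on all 6 arrays) and below for 31.6% (31.3%). Every call kept its direction on both slides that held both strains. Where groups do not overlap this must be so, and they overlapped in only 2 of the 1098 calls. The arrays of these slides were also among those that made the calls, so the kept direction is no separate support. At least 2-fold on slide 2 were 467 of the 557 higher and 488 of the 541 lower, and on slide 3 they numbered 488 and 474. In what follows, members of a gene group are those well above background on all 6 arrays, and their counts are to be read against 8.67% and 8.36%. The array has 1 probe per gene, so a lower transcript level in either strain and a gene sequence that differs from the probe cannot be told apart. This limit holds for rises in Hyb-8 as it does for falls.

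**Figure D1:**
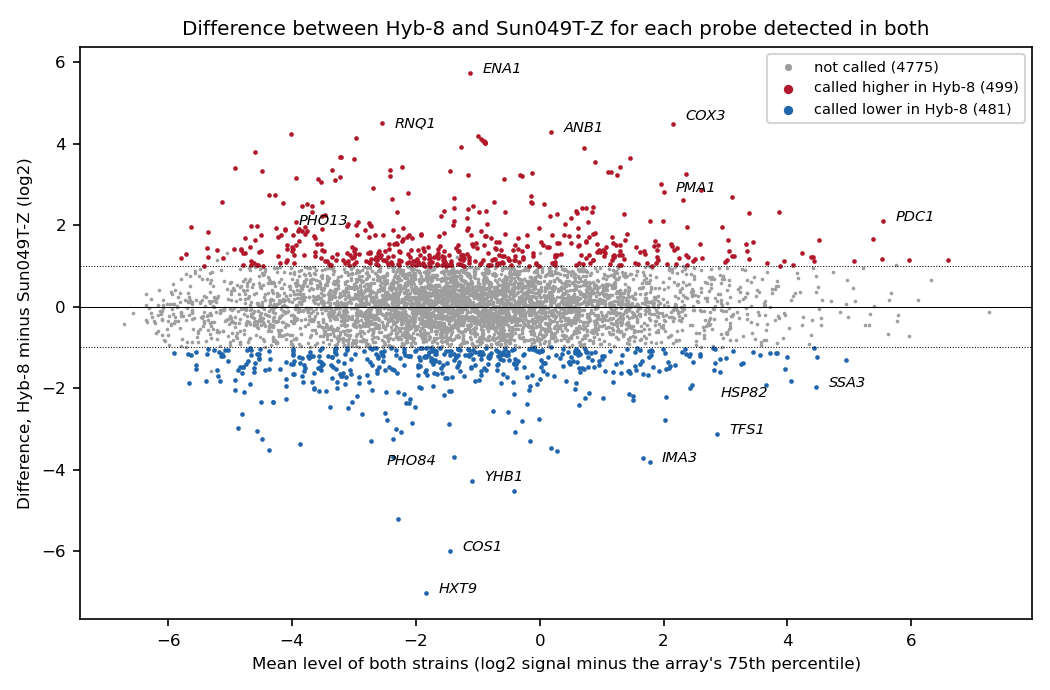
Difference (Hyb-8 minus Sun049T-Z, log2) of each of the 5755 probes detected on all 6 arrays, against the mean level of the strains (log2 signal minus the array's 75th percentile). The 499 probes called higher and the 481 called lower lie outside the dotted lines at 2-fold and occur at all levels, with ENA1 and HXT9 at the extremes.

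Glycolysis and the step from pyruvate to ethanol lay higher in Hyb-8. Of 22 glycolytic genes, 12 were called higher and 0 lower, and their median difference was 1.09. ENO2, an enolase, read 1.13, 0.76 and 0.92 in Sun049T-Z and 3.09, 3.07 and 2.98 in Hyb-8, a 4.32-fold rise (adjusted p = 1.31e-06). CDC19, the main pyruvate kinase, read 3.86, 3.73 and 3.48 against 5.57, 5.29 and 5.10, which is 3.09-fold (adjusted p = 4.02e-05). The other genes that rose included TDH3, a glyceraldehyde 3-phosphate dehydrogenase, by 1.63 and ENO1, another enolase, by 1.24. Downward no member was called, and GLK1, EMI2 and PFK27, which belong to the minor hexose kinases and to fructose 2,6-bisphosphate synthesis, had differences of -0.78, -0.89 and -0.85.

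Of 11 genes between pyruvate and ethanol, 5 were higher and 2 lower, with a median of 0.56. PDC1, the main pyruvate decarboxylase, read 4.63, 4.38 and 4.49 in Sun049T-Z and 6.48, 6.76 and 6.54 in Hyb-8 (4.26-fold, adjusted p = 5.5e-06). PDC6, its minor isoform, went from -0.77, -0.29 and -0.43 to 2.88, 2.91 and 2.62, a 9.88-fold rise (adjusted p = 3.47e-06). The groups did not overlap in either gene. ADH6, an NADPH-dependent alcohol dehydrogenase, rose by 1.99 and ADH1, the main fermentative enzyme, by 1.16, a call that was lost with quantile normalization (0.50, adjusted p = 0.0315). SFA1, which also oxidises formaldehyde bound to glutathione, fell by 1.52. ADH5, another alcohol dehydrogenase, fell by 1.04, and by 0.96 without Sun049T-Z replicate 1 and 0.94 without Hyb-8 replicate 2, where it was no longer called. ADH2, the glucose-repressed isoform, rose by 1.01, close to the threshold (adjusted p = 0.0324).

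In the pentose phosphate pathway 2 were higher and 2 lower of 12, with a median of -0.19. The number higher was 4 without Hyb-8 replicate 3 and 3 without any 1 of the Sun049T-Z arrays, and the median turned to 0.07 with slide as a block and to 0.10 within slide 3. TKL1, the main transketolase and thus a step that xylose carbon must pass, read -2.19, -2.17 and -2.01 in Sun049T-Z and -0.36, -0.05 and -0.19 in Hyb-8, a 3.79-fold rise (adjusted p = 6.67e-06). GND1, the main 6-phosphogluconate dehydrogenase, rose by 1.31. TAL1, the transaldolase, had a difference of 0.95 and stayed under the 2-fold threshold (adjusted p = 0.000214). SHB17, a sedoheptulose bisphosphatase, fell by 2.05 and SOL4, a phosphogluconolactonase, by 1.83. Among native enzymes that act on xylose and polyols, GRE3, an aldose reductase that makes xylitol, was 3.24-fold lower (1.12, 0.95 and 1.16 against -0.68, -0.49 and -0.69). YJR096W, another putative aldose reductase, fell by 2.14, while YDL124W, of the same enzyme family, rose by 1.59. XKS1, xylulokinase, whose probe cannot separate the chromosomal from the plasmid copy, differed by -0.09 (adjusted p = 0.411).

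Among genes of the citrate and glyoxylate cycles and of gluconeogenesis, 5 of 31 were higher and 0 lower (median 0.40, and 0.19 without Sun049T-Z replicate 1). IDH1, of isocitrate dehydrogenase, rose by 1.79, PCK1, the gluconeogenic carboxykinase, by 1.67 and CIT3, a mitochondrial citrate and methylcitrate synthase, by 1.49. Of 39 nuclear genes of the respiratory chain and ATP synthase, 2 were higher, COX13 and the activator gene HAP4, and 4 lower (median 0.07). COX5B, the hypoxic isoform of a cytochrome oxidase subunit, read 1.88, 1.88 and 1.80 in Sun049T-Z and -0.75, -0.32 and -0.65 in Hyb-8, 5.36-fold lower (adjusted p = 1.11e-06). CYC7, the minor cytochrome c, fell by 1.99, NDE2, an external NADH dehydrogenase, by 2.24 and QCR8, of the cytochrome bc1 complex, by 1.02. QCR8 was no longer called without Hyb-8 replicate 2 (-0.96), without Sun049T-Z replicate 2 (-0.98) or with outlier spots kept (-0.71, adjusted p = 0.0504). ANB1, a translation factor gene known as repressed in air, rose from a mean of -1.96 ± 0.66 (SD, n = 3) to 2.33 ± 0.26 (SD, n = 3), 19.6-fold (adjusted p = 2.95e-06). ROX1, the repressor of hypoxic genes, rose by 1.74.

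Chaperone genes lay lower in Hyb-8. Of 37 cytosolic heat shock proteins, chaperones and their regulators, 18 were called lower and 1 higher, with a median difference of -0.91. HSP82, the inducible Hsp90, read 5.04, 4.93 and 4.94 in Sun049T-Z and 3.09, 3.16 and 3.21 in Hyb-8, 3.52-fold lower (adjusted p = 7.07e-07). SSA3, an inducible Hsp70, read 5.86, 5.22 and 5.27 against 3.43, 3.53 and 3.49 (3.9-fold lower, adjusted p = 0.000241). SSA1, of the same family, fell by 1.60, AHA1, which activates the Hsp90 ATPase, by 1.63, and CUR1, a sorting factor for misfolded proteins, by 1.61. The groups did not overlap in these 5 genes. HSP104, the disaggregase, and HSP26 and HSP12, small heat shock proteins, had differences of -0.86, -0.68 and -0.45 and were not called.

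HSP30, a stress protein of the plasma membrane and no cytosolic chaperone, was the one member that rose, 5-fold from 2.28, 2.96 and 2.89 to 5.15, 5.07 and 4.88 (adjusted p = 3.64e-05). The transcript of HSF1 itself had a difference of -0.58 (adjusted p = 0.00276) and those of MSN2 and MSN4 of -0.10 and -0.53, all under 2-fold. In mitochondria, 4 of 17 chaperone and protease genes were lower and 0 higher (median -0.60), among them ZIM17, a zinc finger partner of mitochondrial Hsp70, by -1.41 and HSP78, a mitochondrial disaggregase, by -1.18. In the endoplasmic reticulum 2 of 28 were higher and 2 lower (median -0.13). ERO1, the oxidase for disulfide bonds, fell by 1.59, whereas IRE1, the sensor of unfolded proteins, rose by 1.47. The proteasome had 0 higher and 1 lower of 36, the activator gene BLM10, and 2 lower without Sun049T-Z replicate 1.

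Genes of storage carbohydrates also lay lower, with 8 of 23 trehalose and glycogen genes lower, 0 higher and a median of -0.55. Without Sun049T-Z replicate 1 there was 1 higher. GSY1, a glycogen synthase, read 3.32, 3.10 and 3.00 in Sun049T-Z and 0.86, 1.14 and 0.81 in Hyb-8, 4.61-fold lower (adjusted p = 1.63e-06). NTH2, a trehalase, read 0.83, 0.85 and 0.77 against -0.98, -1.18 and -1.24 (3.86-fold lower, adjusted p = 1.2e-06). PGM2, the main phosphoglucomutase, fell by 1.36, PIG2, a phosphatase subunit for glycogen synthase, by 1.33 and GPH1, glycogen phosphorylase, by 1.22. The 8 thus held genes for making and for breaking down these sugars. TPS1, which makes trehalose 6-phosphate, had a difference of -0.90 and was not called.

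**Figure D2:**
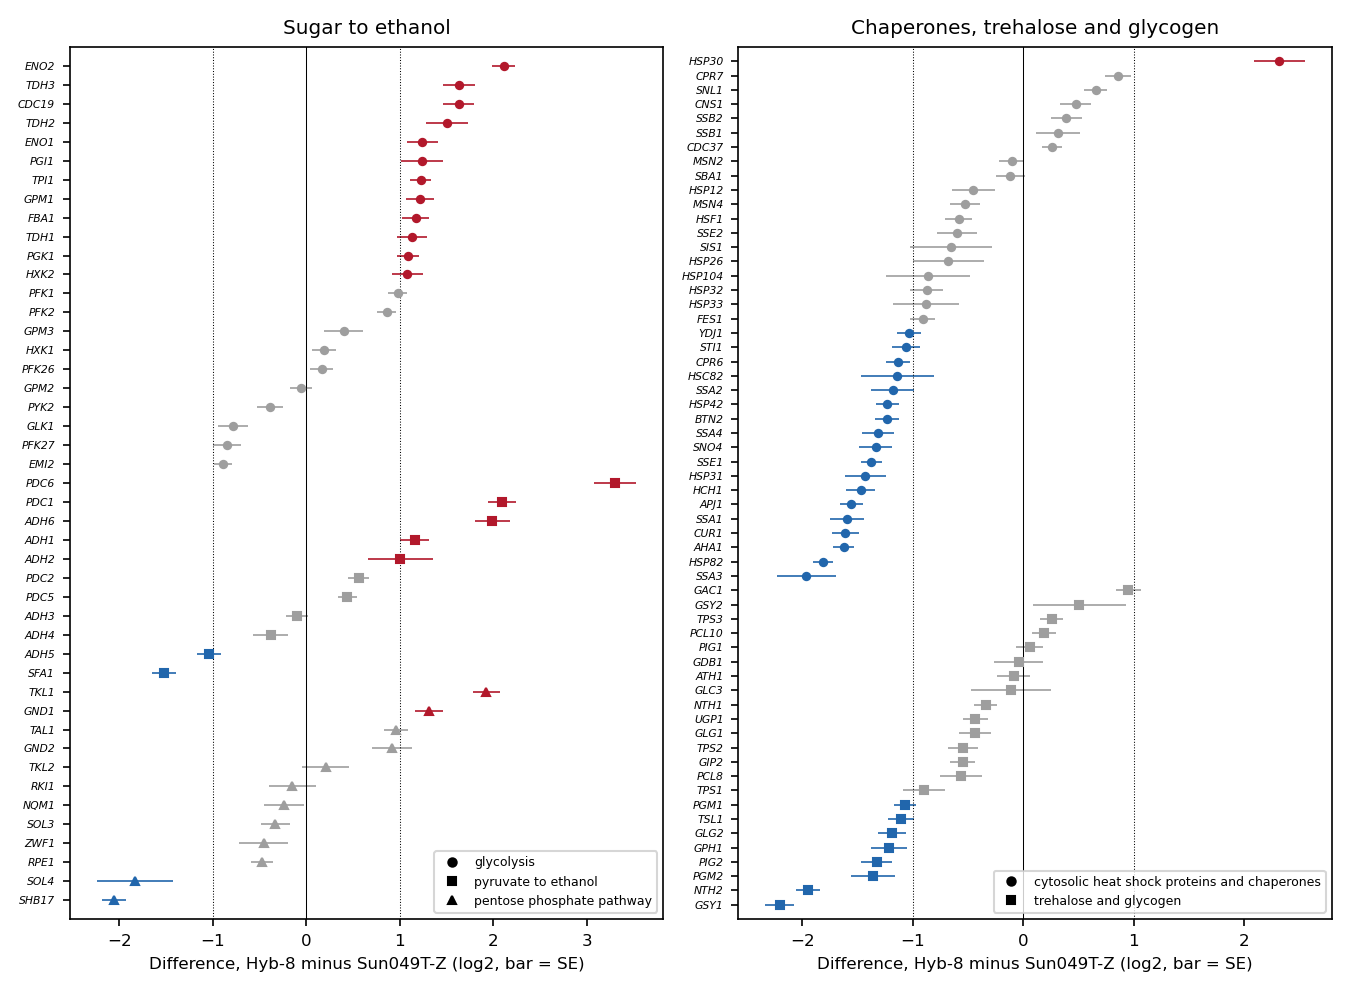
Difference (Hyb-8 minus Sun049T-Z, log2) of each member of the glycolysis, ethanol and pentose phosphate groups (left) and of the chaperone and of the trehalose and glycogen groups (right), with bars for the limma SE. Red marks genes called higher, blue genes called lower and grey genes not called, and the right panel holds 1 red point, HSP30.

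Of 20 ion pumps and transporters of the plasma membrane, 3 were higher in Hyb-8 and 1 lower, with a median of 0.10 (-0.10 without Sun049T-Z replicate 1). PMA1, the proton pump, read 0.74, 0.63 and 0.39 in Sun049T-Z and 3.71, 3.18 and 3.35 in Hyb-8, a 7.1-fold rise (adjusted p = 2.61e-06). ENA1, a sodium and lithium pump, read -2.70, -4.83 and -4.44 against 1.84, 1.57 and 1.83, a difference of 5.74 (adjusted p = 7.19e-06), and without Sun049T-Z replicate 1, its least negative array, the difference was 6.38. ENA5, of the same tandem cluster, was undetected on the Sun049T-Z arrays (not well above background) and reached 2.15, 2.12 and 2.02 in Hyb-8, at least 577-fold higher. ENA2, between them, gave a difference of -0.65. These genes are near-identical in sequence, so their probes may share signal. Of the other plasma membrane members, PMP1, a small partner of Pma1, was higher by 1.03, close to the threshold. It was uncalled without Sun049T-Z replicate 1 (0.93) or Hyb-8 replicate 2 (0.998), and with slide as a block (0.898). Quantile normalization (0.964) and a shift to the array median (0.975) also lost the call. HAL5, a kinase that stabilises potassium carriers, fell by 1.66.

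Genes of the weak-acid response differed both ways. YRO2, a membrane protein gene under the acid-responsive activator Haa1, read -0.50, -0.63 and -0.49 in Sun049T-Z and 2.85, 2.63 and 2.79 in Hyb-8, 9.81-fold higher (adjusted p = 2.48e-07). Its paralog MRH1 rose by 2.18. SPI1, a wall protein known for weak-acid resistance, fell by 1.91 and SUR2, a sphingolipid hydroxylase, by 2.28. HAA1 itself overlapped between the strains (difference 0.15, adjusted p = 0.354). In all, 3 of 18 members were higher and 2 lower (median 0.12). Of 16 genes for uptake and use of acetate, 1 was higher, ACS2, an acetyl-CoA synthetase (1.18), and 1 lower, ALD5, a mitochondrial aldehyde dehydrogenase (-1.43). Without Sun049T-Z replicate 1 these counts were 2 and 3.

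FDH1, formate dehydrogenase, which oxidises formic acid to carbon dioxide, read -1.80, -1.97 and -1.91 in Sun049T-Z and 1.54, 0.85 and 1.53 in Hyb-8, 9.22-fold higher (adjusted p = 2.67e-06). The probe of FDH2, a near-identical copy, rose by 3.23, and the copies cannot be told apart. Of 17 genes of formate and one-carbon metabolism, 3 were higher and 1 lower (median 0.24), and 1 was higher without Sun049T-Z replicate 1 or with slide as a block. The lower one was MET13, a methylenetetrahydrofolate reductase, at -2.13. For glycerol, the 2 isoforms of glycerol 3-phosphate phosphatase moved apart. GPP1 read 1.04, 2.20 and 2.06 in Sun049T-Z and 4.33, 4.72 and 4.30 in Hyb-8, 6.42-fold higher (adjusted p = 3.75e-05), and GPP2, the isoform known to follow osmotic stress, fell by 1.58 (adjusted p = 0.000263).

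**Figure D3:**
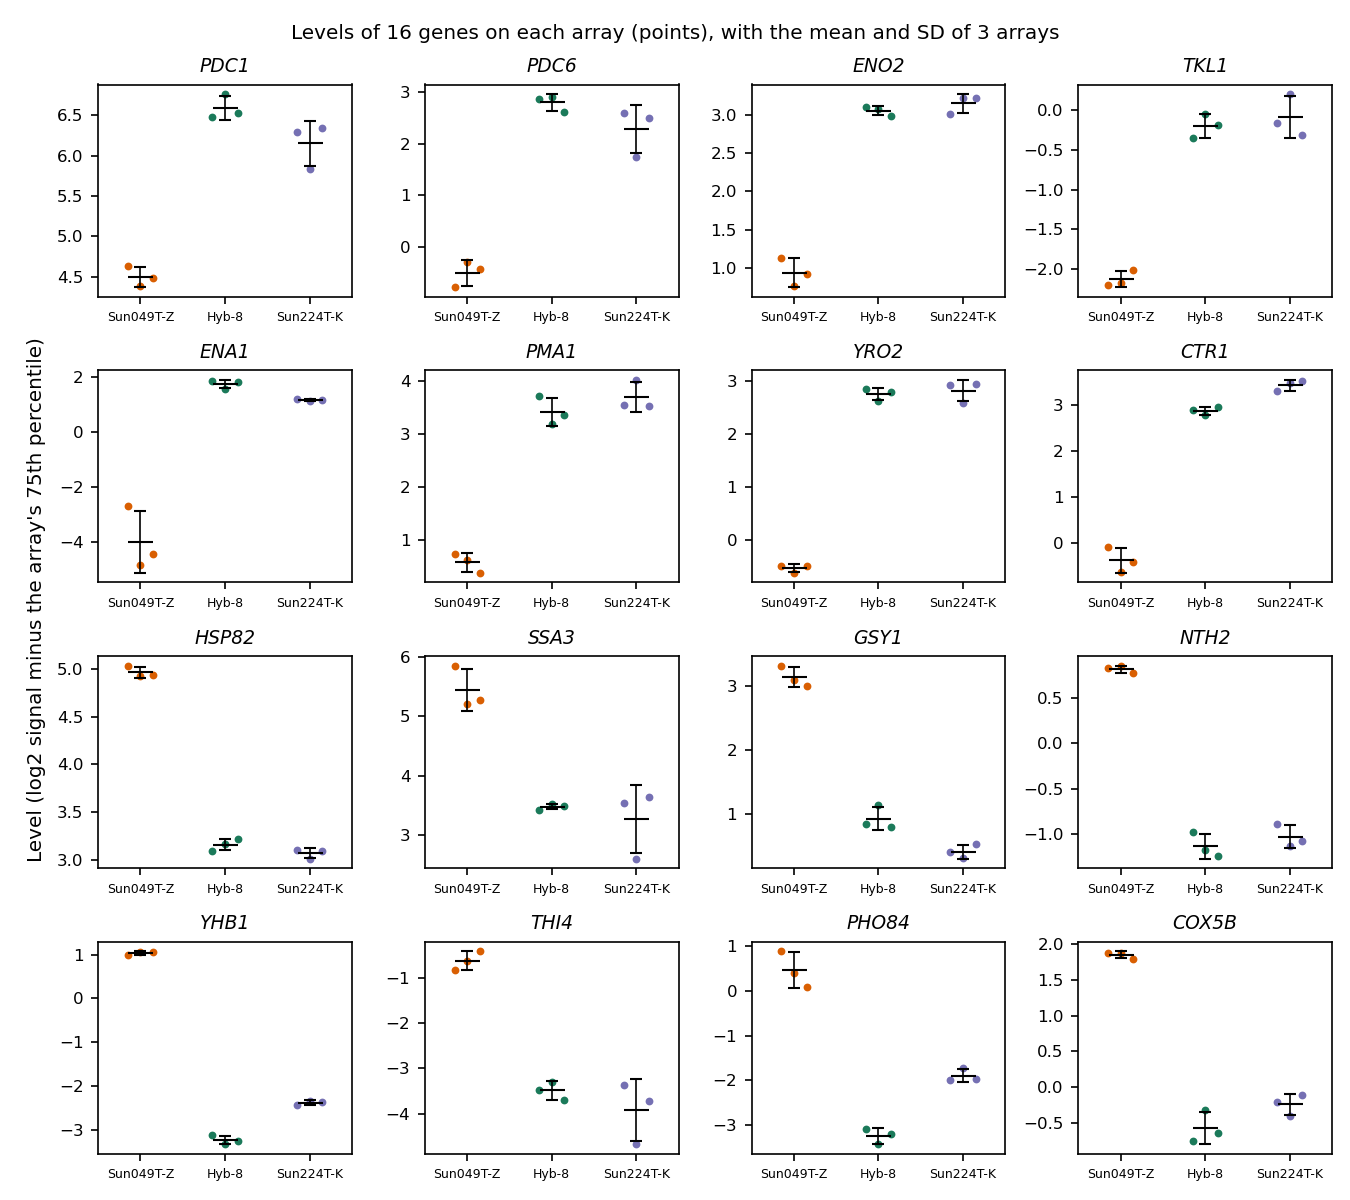
Levels (log2 signal minus the array's 75th percentile) of 16 genes on the 3 arrays of Sun049T-Z, of Hyb-8 and, for reference, of Sun224T-K, with black marks for the mean and SD. In each panel the 3 Hyb-8 points lie apart from the 3 Sun049T-Z points.

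Lipid genes differed by branch. Of 25 genes of ergosterol synthesis, 6 were higher and 2 lower, and the median was 0.21. ERG4, the last enzyme of the pathway, read -2.03, -1.18 and -1.32 in Sun049T-Z and 0.97, 1.41 and 1.26 in Hyb-8, 6.6-fold higher (adjusted p = 7.72e-06). ERG11, the demethylase that azoles inhibit, rose by 1.26 and ERG6, a methyltransferase, by 1.21. All 6 that rose, which include ERG25 and ERG3, act after lanosterol or pass electrons to enzymes that do, as NCP1 does. The 2 that fell act before it, ERG20, the farnesyl diphosphate synthase, by 1.24 and ERG7, which makes lanosterol, by 1.23. UPC2, the activator of sterol genes, overlapped (-0.18, adjusted p = 0.206).

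Of 19 genes of fatty acid synthesis and desaturation 3 were higher and 0 lower. FAS2, of fatty acid synthase, rose by 1.22 and MGA2, an activator of the desaturase gene, by 1.54. FAS1, the partner of FAS2, had a difference of 1.55 that rested on Sun049T-Z replicate 1 (0.90, against 3.34 and 3.42 on the other arrays) and was 0.72, under 2-fold, without it. Its adjusted p was 0.0369, and leaving out any 1 Hyb-8 array raised it to between 0.0796 and 0.0954. Peroxisomal oxidation of fatty acids had 7 higher and 1 lower of 24 (median 0.25). POX1, the first oxidase, read 0.04, -0.21 and 0.00 against 1.65, 1.66 and 1.63, a 3.26-fold rise, and POT1, the thiolase, rose by 1.59. FOX2, between them in the pathway, was higher by 1.51 with Sun049T-Z replicate 1 and by 0.86 without it, and its adjusted p was 0.0505 without Hyb-8 replicate 1. PCS60, an oxalyl-CoA synthetase of peroxisomes, fell 11-fold, from 1.99, 1.89 and 1.83 to -1.96, -1.51 and -1.19 (adjusted p = 5.82e-06).

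Genes of metal uptake and use differed in both directions. Of 29 genes of the iron regulon, 10 were higher and 2 lower (median 0.61), and of all 33 tested, which include those undetected in a strain, 10 were higher and 5 lower (median 0.42). Beyond the transporters SIT1, FET3 and FTR1, the group held FRE6, a vacuolar reductase, with a rise of 2.41, FET4, a low-affinity iron transporter, with 2.18, and HMX1, heme oxygenase, with 2.08. AFT1, the activator of the regulon, read -2.16, -2.35 and -2.37 in Sun049T-Z and -0.91, -0.97 and -1.18 in Hyb-8, 2.42-fold higher (adjusted p = 1.64e-05). Other members of the regulon ran against it. FIT2, a wall protein for siderophore capture, and the reductase gene FRE3 went undetected in Hyb-8, and their Sun049T-Z levels exceeded it by at least 23.3-fold and 56.2-fold.

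Among 28 genes for iron storage, iron-sulfur clusters and heme, 9 were lower and 2 higher (median -0.42). YHB1, a flavohemoglobin that detoxifies nitric oxide, read 1.00, 1.05 and 1.07 in Sun049T-Z and -3.13, -3.32 and -3.26 in Hyb-8, 19.3-fold lower (adjusted p = 1.85e-08). HEM13, HEM15 and HEM3, enzymes of heme synthesis, fell by 1.77, 1.73 and 1.31, and GRX5, which serves cluster assembly in mitochondria, by 1.49. CTR1, the high-affinity copper transporter, read -0.08, -0.61 and -0.41 in Sun049T-Z and 2.88, 2.78 and 2.96 in Hyb-8, 9.47-fold higher (adjusted p = 3.98e-07). FRE7, a copper-regulated reductase, rose by 2.47. Of 13 genes of copper uptake and binding, 3 were higher and 1 lower, but 5 lay above 0 and their median was -0.26. The lower one, COX17, a copper chaperone, was no longer called without Hyb-8 replicate 2 or without replicate 2 or 3 of Sun049T-Z. For zinc, 5 of 19 were higher and 2 lower (median 0.01). ZRT2, a zinc transporter, fell by 2.13, whereas IZH1, a membrane protein tied to zinc, rose by 1.53.

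Amino acid synthesis differed by branch. Of 19 genes of histidine, serine and threonine synthesis and their activator, 7 were called higher and 0 lower (median 0.88). SER2, the last step to serine, read -4.85, -5.24 and -4.97 in Sun049T-Z and -2.43, -2.69 and -2.37 in Hyb-8, 5.75-fold higher (adjusted p = 2.13e-06). HIS7 rose by 1.73, THR4 by 1.37 and ARO4, at the head of aromatic amino acid synthesis, by 1.45. GCN4, the activator of amino acid synthesis, read 2.62, 2.16 and 2.35 against 3.68, 3.69 and 3.84 (2.58-fold, adjusted p = 3.07e-05). Of 12 genes for branched-chain amino acids 0 were called either way, with a median of 0.56, and without Sun049T-Z replicate 1 there were 2 higher and 1 lower with a median of 0.34. Of 10 genes of lysine synthesis 2 were higher and 0 lower, and their median was -0.12. That count was 1 without Sun049T-Z replicate 1.

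Aminoacyl-tRNA synthetases had 5 of 20 higher and 0 lower (median 0.82), led by KRS1 for lysine (2.45) and THS1 for threonine (1.37). Purine synthesis had 5 of 19 higher and 0 lower (median 0.30), with GUA1, for GMP, at 1.71 and ADE2 at 1.57. Cytosolic ribosomal proteins had a median of 0.44 over 139 genes, of which 8 were called higher, a share of 5.76%, and 0 lower. That count was 3 without Hyb-8 replicate 2 and 13 without Hyb-8 replicate 1. Ribosome biogenesis factors had 9 of 149 higher (6.04%) and 0 lower (median 0.21). Both shares were under the 8.67% of all probes. Ribosomal proteins of mitochondria had a median on the other side, at -0.44. Of these 71 genes 5 were called lower and 0 higher, and 3 were lower without Hyb-8 replicate 2. The share called lower, 7.04%, was under the 8.36% of all probes. MRPL24 fell by 1.35 and IMG1 by 1.14.

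**Figure D4:**
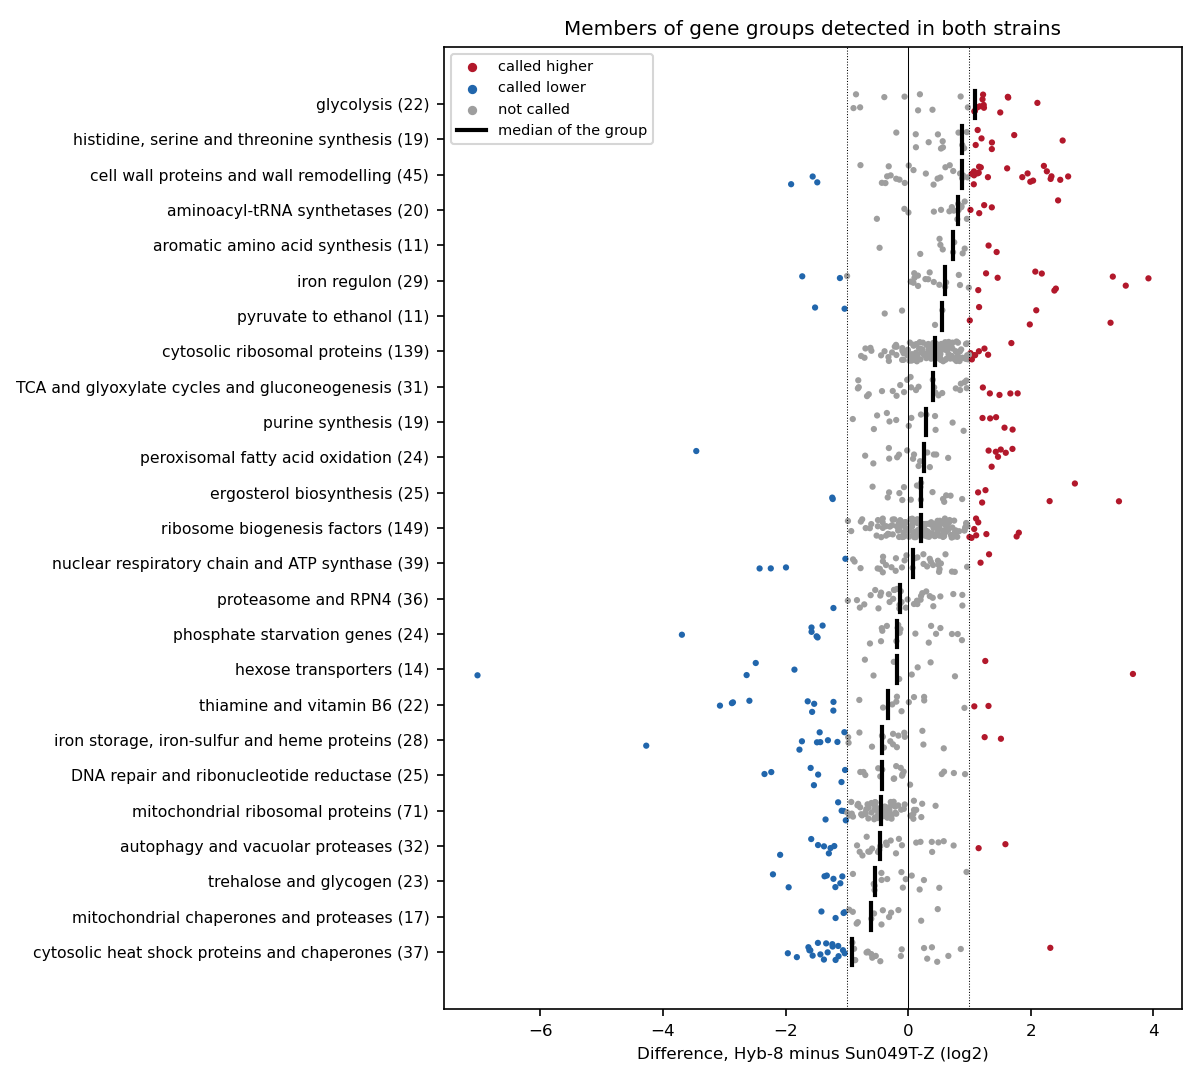
Difference (Hyb-8 minus Sun049T-Z, log2) of the members of 25 gene groups that were well above background on all 6 arrays, with their number in parentheses and a black bar at the median. Glycolysis (median 1.09) lies at the top and cytosolic chaperones (median -0.91) at the bottom, and the dotted lines mark 2-fold.

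Of 45 genes of the cell wall, 20 were higher in Hyb-8 and 3 lower, and the median was 0.88. SCW11 and EGT2, which act when mother and daughter cells separate, rose by 2.48 and 2.34, and DSE4, of the same process, by 2.22. EXG1, the main exoglucanase, read -0.43, -0.14 and -0.38 in Sun049T-Z and 2.03, 2.11 and 1.89 in Hyb-8, 5.02-fold higher (adjusted p = 5.85e-07). CIS3, a wall protein with internal repeats, rose by 2.26. CCW14, a wall glycoprotein, was higher by 2.61, and by 1.80 without Sun049T-Z replicate 1, where it read -0.62. SLT2, the kinase of the cell integrity pathway, read 0.42, 0.64 and 0.71 against 1.80, 1.79 and 1.67 (2.23-fold, adjusted p = 2.73e-05). FKS3 and GAS3, relatives of glucan synthase and of glucan remodelling enzymes, fell by 1.56 and 1.48, and the call for FKS3 was lost with the normexp background (-0.84).

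Cell cycle and meiosis genes changed in part. CLB2, the main mitotic cyclin, read -5.67, -5.66 and -5.61 in Sun049T-Z and -2.76, -3.22 and -2.72 in Hyb-8, 6.72-fold higher (adjusted p = 1.2e-06). CLB1, its partner, rose by 1.90 and the G1 cyclin gene CLN1 by 1.37, while SWE1, a kinase that restrains mitosis, fell by 1.47 and CDC28, the cyclin-dependent kinase, by 1.18. Of 26 such genes 6 were higher and 2 lower (median 0.32). Among 29 genes of meiosis and sporulation 8 were higher and 3 lower, and their median was -0.01. NDT80, the activator of middle meiotic genes, read -4.88, -4.55 and -4.36 against -2.70, -2.14 and -2.18 (4.78-fold), and SPR3, a sporulation septin, rose by 2.56.

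DNA repair had 7 of 25 genes lower and 0 higher (median -0.42). RAD16, of nucleotide excision repair, fell by 2.23 and HUG1, a damage-induced inhibitor of ribonucleotide reductase, by 2.34. RNR4, a subunit of that enzyme, read 2.18, 1.94 and 1.80 in Sun049T-Z and 0.34, 0.44 and 0.38 in Hyb-8 (3.01-fold lower, adjusted p = 5.8e-06). PHR1, the photolyase that repairs UV damage in light, went undetected in Hyb-8, a difference of at least 44.2-fold. Autophagy and vacuolar proteases had 7 of 32 lower and 2 higher (median -0.46), where the number higher was 1 without Sun049T-Z replicate 1 and 0 with slide as a block. Among the lower were ATG16 and ATG9, of autophagosome formation, at -2.09 and -1.58.

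Of 22 genes for thiamine and vitamin B6, 9 were lower and 2 higher (median -0.33), and without Sun049T-Z replicate 1 there were 9 lower and 0 higher. Of 19 genes for biotin and NAD, 0 were higher and 1 lower (median 0.23). THI4, which makes the thiazole part, read -0.84, -0.63 and -0.43 in Sun049T-Z and -3.47, -3.29 and -3.71 in Hyb-8, 7.25-fold lower (adjusted p = 4.2e-05). THI73, a putative carboxylate transporter that thiamine regulates, fell by 3.07, the transporter gene THI7 by 1.57 and the activator THI2 by 1.53. SNZ2 and SNZ3, near-identical genes of vitamin B6 synthesis, fell by 2.87 and 2.59, and each may carry signal of the other.

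Phosphate genes had 6 of 24 lower and 0 higher (median -0.18). Of all 27 tested, which include those not detected on all 6 arrays, 6 were lower and 3 higher (median -0.16). PHO84, the high-affinity phosphate transporter, read 0.88, 0.40 and 0.08 in Sun049T-Z and -3.08, -3.43 and -3.20 in Hyb-8, 12.9-fold lower (adjusted p = 9.54e-07), and PHO4, the activator, fell by 1.40. The acid phosphatase genes PHO12 and PHO3 were well above background only in Hyb-8 among these strains, PHO12 by at least 25.9-fold. In nitrogen use, PUT4, the proline permease, rose by 2.30, while UGA4, for gamma-aminobutyrate, fell by 2.16 and 4 of 10 allantoin genes were lower and 1 higher, which was 0 without Sun049T-Z replicate 1. GTT1 and GTT2, glutathione transferases, rose by 2.87 and 2.46 within an oxidative stress group of 35 with 5 higher and 4 lower (median -0.13). Without Sun049T-Z replicate 1 GTT1 was higher by 2.17 and 3 of the group were higher.

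HXT9, a minor hexose transporter, read 1.45, 1.88 and 1.70 in Sun049T-Z and -5.84, -5.08 and -5.13 in Hyb-8 (130-fold lower, adjusted p = 1.17e-07). HXT17, HXT12 and HXT11 fell by 2.64, 2.49 and 1.85, whereas HXT8 rose by 3.67 and HXT1, a low-affinity glucose transporter, by 1.26. Of the 14 hexose transporters detected on all 6 arrays, 2 were higher and 4 lower (median -0.19). Of all 18 tested, 3 were higher and 7 lower (median -0.40), and HXT13, HXT15 and HXT16, undetected in Hyb-8, were among the 7. HXT9, HXT11 and HXT12 are close copies of each other, as are HXT13, HXT15, HXT16 and HXT17. Their probes may share signal, so the 7 are not separate counts. The isomaltase genes IMA2, IMA3 and IMA4, near-identical to each other, fell by 3.55, 3.82 and 3.72, while IMA5 rose by 1.97. The maltose activators differed in opposite directions. MAL33 fell 12.9-fold, from -0.01, -0.81 and -0.78 to -4.37, -4.18 and -4.12. MAL13 was well above background only in Hyb-8 among the strains compared, at least 21.8-fold higher. The maltase gene MAL32 rose by 2.54 and its copy MAL12 by 1.14.

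Outside these groups, RNQ1, a prion protein, rose by 4.50, COX3, a cytochrome oxidase subunit encoded in mitochondria, by 4.48 and TFA1, of the transcription factor TFIIE, by 4.14. RNQ1 read -3.90, -5.55 and -4.94 in Sun049T-Z and -0.40, -0.32 and -0.16 in Hyb-8. Y' helicase genes at chromosome ends rose together, with YRF1-8 at -2.92, -3.41 and -2.96 against 0.83, 1.33 and 1.12 (18.2-fold), and their probes cannot be told apart. COS1, of a membrane protein family at chromosome ends, fell 63.3-fold (1.54, 1.43 and 1.64 against -4.62, -4.16 and -4.56). ERR3, an enolase-related gene with close copies, fell by 3.53. VID24 and GID10, which recognise substrates of the ligase that degrades gluconeogenic enzymes, fell by 3.29 each. Of the proteins encoded in mitochondrial introns, AI1 went undetected in Hyb-8 and BI2 in Sun049T-Z.

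Genes well above background on all 3 arrays of one strain and on none of the other numbered 27 for Hyb-8 and 38 for Sun049T-Z. A fold for these is a lower bound, the mean of the strain with signal over the mean of the dimmest detectable signal of each array of the other. The largest bound in Sun049T-Z was that of YOR385W, at 0.56, 1.08 and 1.07 and at least 282-fold higher, followed by FRE3, PHR1 and REE1, a cytoplasmic protein gene, at least 32.4-fold. After ENA5, PHO12 and MAL13 the largest in Hyb-8 were YGR122C-A (at least 15.9-fold), COS8 (15.1), KTD1, a killer toxin defence gene (14.4), and AIF1, an apoptosis factor gene (12.3). These genes, ENA5, PHO12 and MAL13 included, were also well above background on all 3 arrays of Sun224T-K. YOR385W, FRE3 and PHR1 were so on none of its arrays. Leaving out Sun049T-Z replicate 3 changed the fitted differences of PHO12 and COS8 from 5.79 and 5.28 to 5.01 and 4.51, and leaving out Sun049T-Z replicate 1 changed that of COS8 to 5.88. Several neighbours shared a direction and are named for it, after their values were seen. FRE3, FIT2, YOR385W and PHR1 lie within YOR381W to YOR386W on chromosome XV, where the probe of RDR1 (YOR380W) next to them differed by 0.03. ARO3, an aromatic amino acid enzyme, EHD3, KRS1 and ENA5 are consecutive on chromosome IV (YDR035W to YDR038C), and all were higher in Hyb-8, ARO3 by 5.80 and EHD3 by 5.32, each well above background on 2 of 3 Sun049T-Z arrays. RFX1, YLR177W, TFS1, YLR179C and SAM1 are consecutive on chromosome XII, and all were lower, with TFS1, a carboxypeptidase Y inhibitor, by 3.11. HXT9, IMA4 and REE1, named apart above by function, are neighbours on chromosome X (YJL222W to YJL217W). VTH2 and YJL218W, in the same stretch, were lower by 2.01 and 2.09. HXT8 (YJL214W) and IMA5, just beyond them, were higher.

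Position on the chromosomes also went with the calls. Of 423 tested genes among the last 15 of each chromosome arm, 27.4% were called higher and 17.7% lower, against 7.63% and 8.02% of the 5176 other placed genes. The end genes include near-identical copies, such as the Y' helicase genes, which were counted singly though their probes may share signal. Chromosome IX stood apart from the other nuclear chromosomes. Over its 200 genes well above background on all 6 arrays the median difference was 0.56, or 1.48-fold, with quartiles of 0.09 and 1.04, and the medians of the other 15 chromosomes lay between -0.09 and 0.12. On chromosome IX 77.5% of these genes lay above 0, against 50.8% elsewhere, and 26.5% were called higher and 6.5% lower. The shift ran along its whole length, with medians of 0.65, 0.68, 0.37 and 0.59 in 4 successive stretches of its genes. It was 0.54 on slide 2 and 0.56 on slide 3. Relative to the mean of Sun049T-Z, the chromosome IX median was 0.53, 0.65 and 0.57 on the Hyb-8 arrays, and 0.52, 0.53 and 0.55 on those of Sun224T-K. Gene copy number was not measured. Of the genes named above, THS1, GPP1, MGA2, POT1, GTT1 and BAR1, all higher, and COX5B, HXT12, IMA3 and PIG2, all lower, lie on this chromosome.

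**Figure D5:**
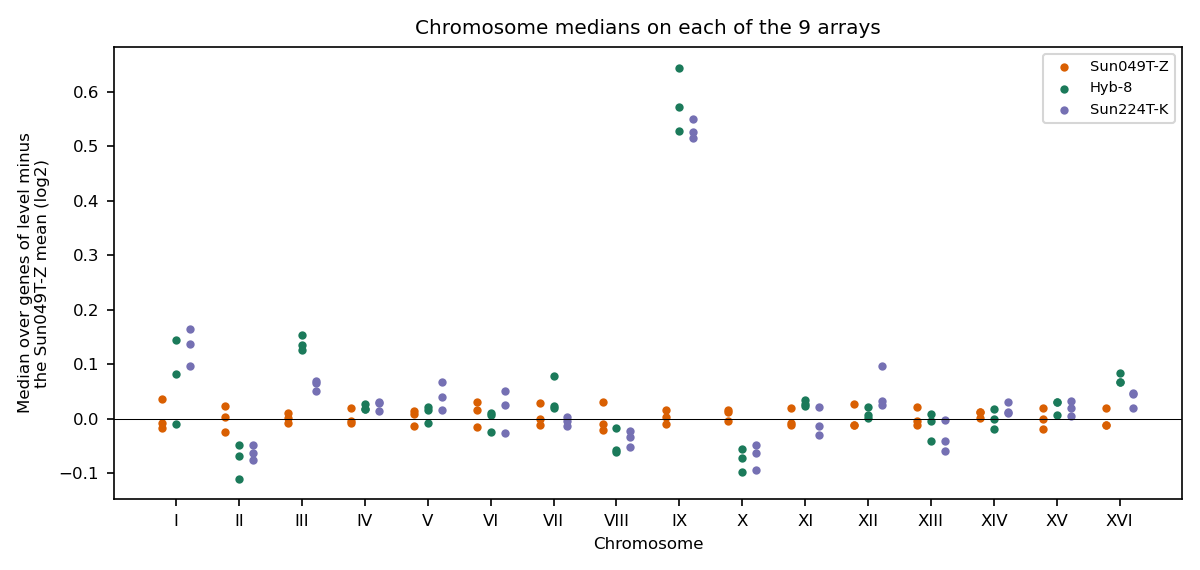
Median over the genes of each nuclear chromosome of the level minus the Sun049T-Z mean (log2), with 1 point for each of the 9 arrays. The 3 Hyb-8 points on chromosome IX (0.53, 0.65 and 0.57) and the 3 of Sun224T-K lie above all others, and those of Sun049T-Z lie near 0.

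Over all probes, arrays of Hyb-8 had correlations of 0.916 to 0.931 with those of Sun049T-Z. With those of Sun224T-K, the other parent, the correlations were 0.975 to 0.992. The levels of Sun224T-K stand beside the values above without a test. Its arrays read 3.00, 3.22 and 3.21 for ENO2, 6.29, 5.83 and 6.34 for PDC1, 3.55, 4.02 and 3.52 for PMA1, 3.10, 3.01 and 3.09 for HSP82, and 0.41, 0.32 and 0.53 for GSY1. For HXT9 they read -2.03, -2.57 and -2.34, between the levels of Hyb-8 and Sun049T-Z, and for FRE7 -0.66, -0.40 and -0.63, above both. ERG4, at 0.37, 0.28 and 0.41, and PHO84, at -1.98, -1.72 and -1.97, also lay between the strains compared.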

How the data were processed

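Transcripts were measured on Agilent 1-colour yeast arrays, 3 for each of Hyb-8, Sun049T-Z and Sun224T-K. The authors deposited the scanner files, whose spot intensity was background-subtracted by Agilent Feature Extraction 10.1.1.1 per the submitters' processing notes, and a table of log2 values from GeneSpring GX, which set against the scanner values proved shifted to the 75th percentile and centred per probe, and served only as an alternative. The genome build of the probe design is not given in the sources used here.

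In R 4.3.3, control and outlier spots were dropped, and a probe's level was the mean over its 7 spots of log2 intensity minus the array's 75th percentile. A probe was tested if some strain had it well above background on each of its 3 arrays. All 9 arrays were fitted with limma 3.58.1 (lmFit, eBayes), strain being the sole term, with Benjamini-Hochberg adjustment. Sun224T-K entered through the shared spread and through the choice of the probes tested. Precision is limited by the number of arrays, and no spot of the 6 arrays compared was saturated. A bound used, per array, the lowest level among probes well above background. A gene table of assembly R64 gave names and gene order, and matched 5756 probes. The other 500 kept the name in the files. The fit was tested on simulated data.

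Members and lists were chosen with earlier results of these data known. Named genes were drawn from the 12 largest changes each way, the 8 largest bounds each way, up to 5 called members each way per list, activators and control genes. ADH2, DSE4, EMI2, ENA2, FDH2, GLK1, HEM3, HMX1, HSP104, HSP12, HSP26, HXT11, HXT13, NCP1, PFK27, SLT2, STE2, TAL1, THI7, TPS1 and neighbouring genes on chromosomes were added after their values were seen. The alternatives were normexp background (offset 50, from the median spot signal, since the files hold no mean signal), quantile or median scaling, the authors' log2 values, filters, marked spots kept, 6 arrays only, replicate or slide blocks, other thresholds and each array left out. Promoter sequences were not used here.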

Additional observations from a re-analysis of the deposited data

How the results depend on the processing

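Across the alternatives no called gene changed sign. The 557 genes called higher and 541 called lower were 1184 and 1134 at a threshold of 1.5-fold, and leaving out 1 array at a time gave 554 to 601 higher and 533 to 576 lower. The normexp background gave 399 and 389, of which 393 and 382 were among the main calls, and of 331 called genes named by rule it lost 51 and shrank 65 by over 1.5 times, and the cause was not tested. Slide as a fixed block gave 540 and 552, with 484 of each shared with the main calls. The shift to the array median gave 498 and 594, so that the share of calls upward went from 50.7% to 45.6%. Deviations of same-numbered arrays from their strain means had correlations of 0.151, 0.016 and 0.14, and those of unlike-numbered arrays lay between -0.29 and 0.162. With 3 arrays a strain, partly on shared slides, these values cannot show whether the replicate numbers pair the samples. The main fit did not pair them, and a fit with the replicate block gave 558 and 545. The counts for ribosome biogenesis factors, RNA polymerases I and III, cyclins and meiosis genes fell to 4, 2, 3 and 5 higher under normexp. Within a slide each strain had 1 array, so those values carry no test. Low signal limited the genes near background, 159 of which were undetected in both strains.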
